A study of Mus musculus with 4 samples.

Results

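Deubiquitinases are enzymes that cut ubiquitin, a small protein tag, from other proteins. The genes described here are those of the Usp and Otu families, taken by name from a table of RNA levels, together with Uchl3, Uchl5, Stambpl1 and Bap1. The rule found 66 genes among 26068 entries that name a gene, each with a single entry. Its names include Usp6nl, a GTPase-activating protein that only resembles a Usp gene, and relatives thought to lack enzyme activity such as Usp39 and Usp50. Stambp, the closest relative of Stambpl1, was left out of the 66 by the rule and is used only for comparison.

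The libraries came from whole testes of male B6D2F1 mice aged 24 days, an age at which the first wave of germ cells has produced round spermatids. There were 2 libraries homozygous for an Adad2 knockout and 2 wild type libraries. The protein made from Adad2 belongs to the family of RNA-editing deaminases by sequence, and the series' title places it in piRNA production and spermiogenesis, the shaping of spermatids. The labels do not describe the knockout allele or say whether the replicates were separate animals, so p-values measure only the spread between these libraries, which may be technical. Levels are log2 RPKM, reads scaled by gene length and library depth, as the authors deposited them. In whole tissue, fewer cells of a type and less RNA per cell cannot be told apart.

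Ubiquitin is attached by ligases and removed by deubiquitinases, and the balance sets whether a protein is degraded by the proteasome, sorted at membranes or changed in activity. Most Usp and Otu enzymes use a catalytic cysteine, whereas Stambpl1 and Stambp are metalloproteases that prefer chains linked through lysine 63 of ubiquitin. In the testis, ubiquitin on histones marks the silenced sex chromosomes in meiosis and the chromatin of spermatids before protamines replace histones.

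Of the 66 genes, 59 had a mean of at least 0 log2 RPKM (1 RPKM) and were tested, and 7 had a mean under 0. In the knockout 5 of the 59 fell, 0 rose and 54 were not past the threshold, a Benjamini-Hochberg adjusted p under 0.05 from limma. The share that fell, 8.47%, was close to the 7.15% of all 13414 genes tested that fell. The share of all genes that rose was 1.22%, and at an unadjusted p under 0.05, 8 of the 59 were lower and 8 higher, against 11.3% and 15.6% of all genes. The median change of the 59 was 0.11 on the log2 scale (knockout minus wild type), against 0.14 over all genes tested. The genes that fell were Stambpl1, Otub2, Usp25, Usp44 and Usp50. Most of these calls missed the threshold without a wild type library, where the spread came from the knockout libraries alone. The fitted changes stayed of like size. They were -1.79 and -2.06 for Stambpl1 without wild type replicate 1 and replicate 2, and -0.82 and -0.86 for Usp44. Leaving out wild type replicate 1, limma called 0 of the 59 (8 were lower and 5 higher by unadjusted p) and 0% of all genes. Leaving out wild type replicate 2, Usp25 was the 1 call, where 2.15% of all genes fell and 0.164% rose. All 5 held without either knockout library, where 9.75% of all genes fell and 3.02% rose without knockout replicate 1, and 7.87% fell and 3.68% rose without knockout replicate 2.

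**Figure D1:**
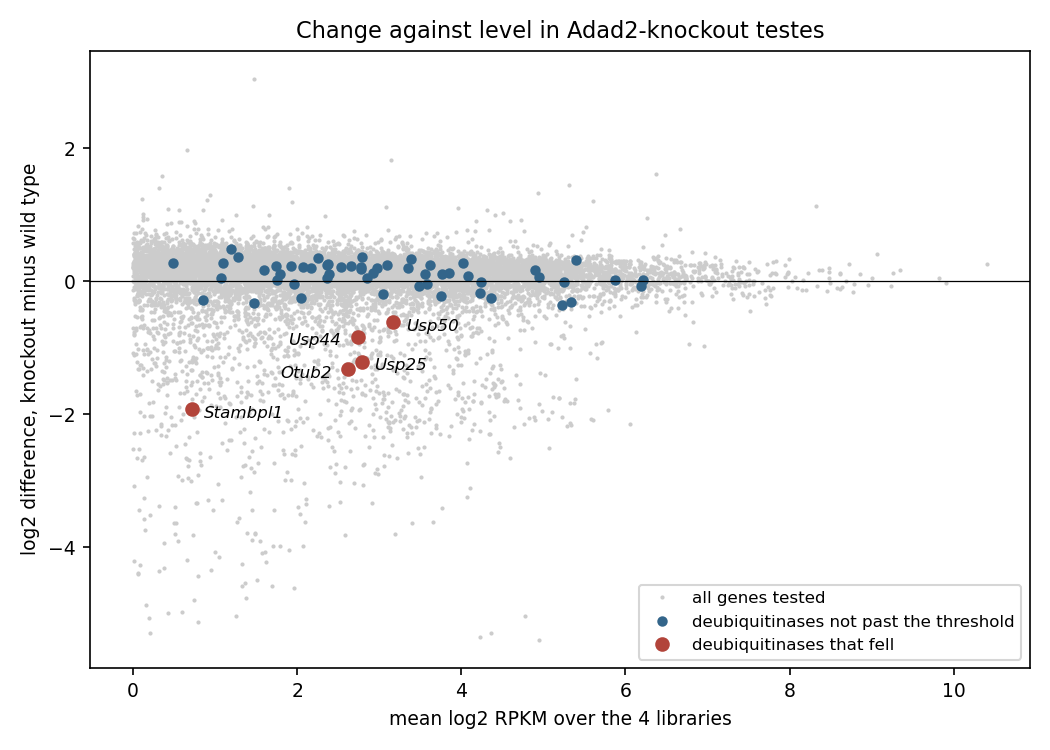
Each point is a gene, with its mean log2 RPKM over the 4 libraries on the horizontal axis and the log2 difference, knockout minus wild type, on the vertical axis. Grey points are the 13414 genes tested, blue points the 54 deubiquitinase genes not past the threshold and red points the 5 that fell. The red points run from -1.93 for Stambpl1 to -0.62 for Usp50, and the lowest blue point is Usp15 at -0.36.

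RefSeq promoters were matched by symbol for 51 of the 66 genes, including 4 of the 5 that fell. Usp44 is the exception. The promoters below, of 300 bases in the GRCm38.p6 build and written along the strand of the gene, are shown because these genes moved together, and each is followed by that of its closest relative that did not fall. Capitals mark CCAAT, or its reverse complement ATTGG.
Stambpl1, chr19:34191979-34192278, plus strand: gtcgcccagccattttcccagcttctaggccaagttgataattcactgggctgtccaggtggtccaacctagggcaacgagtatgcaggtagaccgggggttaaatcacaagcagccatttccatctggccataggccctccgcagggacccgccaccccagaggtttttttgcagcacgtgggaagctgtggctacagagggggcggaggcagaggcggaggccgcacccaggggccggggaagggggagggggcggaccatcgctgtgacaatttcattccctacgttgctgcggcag
Stambp, chr6:83572455-83572754, minus strand: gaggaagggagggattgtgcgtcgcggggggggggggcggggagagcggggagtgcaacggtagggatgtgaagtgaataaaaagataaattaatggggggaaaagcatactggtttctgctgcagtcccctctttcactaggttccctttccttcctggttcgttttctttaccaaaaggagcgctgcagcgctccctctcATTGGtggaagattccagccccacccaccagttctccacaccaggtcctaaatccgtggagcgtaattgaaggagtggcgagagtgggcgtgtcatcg
Otub2, chr12:103388431-103388730, plus strand: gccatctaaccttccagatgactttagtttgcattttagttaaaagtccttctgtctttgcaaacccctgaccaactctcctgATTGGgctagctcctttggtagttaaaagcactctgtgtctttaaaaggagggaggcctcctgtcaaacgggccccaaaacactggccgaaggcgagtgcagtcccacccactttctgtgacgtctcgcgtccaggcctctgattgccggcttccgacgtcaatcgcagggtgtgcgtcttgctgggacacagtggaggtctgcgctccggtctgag
Otub1, chr19:7206235-7206534, minus strand: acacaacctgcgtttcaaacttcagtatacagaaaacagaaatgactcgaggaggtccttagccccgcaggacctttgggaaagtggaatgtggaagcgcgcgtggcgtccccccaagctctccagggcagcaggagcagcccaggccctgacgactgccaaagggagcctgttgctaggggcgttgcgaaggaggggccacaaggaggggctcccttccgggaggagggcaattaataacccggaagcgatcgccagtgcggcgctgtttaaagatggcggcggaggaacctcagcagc
Usp25, chr16:77013819-77014118, plus strand: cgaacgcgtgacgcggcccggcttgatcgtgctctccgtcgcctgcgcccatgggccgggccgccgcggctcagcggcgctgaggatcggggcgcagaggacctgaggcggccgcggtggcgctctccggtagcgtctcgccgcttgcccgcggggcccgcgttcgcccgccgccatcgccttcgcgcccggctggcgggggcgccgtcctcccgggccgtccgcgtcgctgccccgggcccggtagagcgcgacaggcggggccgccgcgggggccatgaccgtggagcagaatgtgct
Usp28, chr9:48985135-48985434, plus strand: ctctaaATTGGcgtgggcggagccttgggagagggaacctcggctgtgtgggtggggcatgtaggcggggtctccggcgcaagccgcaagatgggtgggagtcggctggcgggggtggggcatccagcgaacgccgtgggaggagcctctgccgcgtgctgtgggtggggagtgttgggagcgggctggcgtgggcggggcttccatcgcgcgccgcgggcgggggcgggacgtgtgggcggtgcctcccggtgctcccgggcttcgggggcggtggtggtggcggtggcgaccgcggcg
Usp50, chr2:126783411-126783710, minus strand: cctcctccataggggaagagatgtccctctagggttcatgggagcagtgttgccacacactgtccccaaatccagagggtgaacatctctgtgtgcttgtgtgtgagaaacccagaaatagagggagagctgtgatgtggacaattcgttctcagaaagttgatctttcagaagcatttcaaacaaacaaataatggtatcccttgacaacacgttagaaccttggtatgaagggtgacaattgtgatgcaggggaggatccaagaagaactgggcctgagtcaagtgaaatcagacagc
Usp8, chr2:126707078-126707377, plus strand: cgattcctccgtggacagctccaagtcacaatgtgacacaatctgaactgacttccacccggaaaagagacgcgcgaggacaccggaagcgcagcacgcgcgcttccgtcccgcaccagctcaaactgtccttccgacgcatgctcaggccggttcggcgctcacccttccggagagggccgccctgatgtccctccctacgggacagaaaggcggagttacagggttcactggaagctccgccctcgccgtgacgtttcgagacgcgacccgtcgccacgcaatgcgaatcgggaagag

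These promoters differed widely in composition. The Usp25 promoter held 54 CpG dinucleotides and the Usp50 promoter 2, with 14 in the Stambpl1 promoter and 13 in the Otub2 promoter shown. The median was 25.5 CpG over the 58 promoters of the deubiquitinase genes and 7 over all 32851 promoters of the table. Stambpl1 has 4 promoters in the table and Otub2 has 3, of which 1 of each is printed. Those not printed held 14, 2 and 3 CpG for Stambpl1, and 3 and 13 for Otub2.

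Searched on both strands, the cAMP response element TGACGTCA, the site that the spermatid regulator Crem binds, was in 0 of the 9 promoters of genes that fell, in 2 of the 58 promoters of all the deubiquitinase genes (3.45%) and in 1.79% of all promoters. The wider form TGACGTNA, which includes the first, was in 0 of the 9, in 3 of the 58 (5.17%) and in 2.93% of all promoters. The core letters bound by the meiotic regulator A-MYB, AACNGTT, were in 0 of the 9, in 3 of the 58 and in 4.45% of all. CCAAT was in 4 of the 9, in 17 of the 58 (29.3%) and in 37.4% of all. The 4 belong to Otub2 and Stambpl1 alone, and the Stambpl1 promoter printed above is not among them. Of the 9 promoters, 2 of Otub2 overlap almost wholly, so they are not separate observations. A match to letters is not a bound site, and its absence concerns this window only.

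Stambpl1 encodes a metalloprotease that trims ubiquitin chains at endosomes. It lies at chr19:34266719-34314823 on the plus strand in mm9 (ENSMUSG00000024776). Its log2 RPKM was 0.07 and -0.56 in the knockout libraries, against 1.81 and 1.55 in the wild type libraries. Both knockout values lay more than 1 log2 unit below the lower wild type value, and the knockout libraries differed from each other by 0.63. The change was -1.93 (95% interval -2.49 to -1.37, adjusted p = 0.00211), 3.80-fold lower in the knockout, the largest fall among the 59. About 192 and 111 reads stood behind the knockout values and 590 and 599 behind the wild type values, using exon lengths of a later annotation. Acta2, the smooth muscle actin gene that lies 757 bases from Stambpl1, was at 4.97 and 4.88 in the knockout and 4.68 and 4.55 in wild type (change 0.31, adjusted p = 0.118).

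Otub2 encodes a small Otu enzyme. It lies at chr12:104626892-104644555 on the plus strand in mm9 (ENSMUSG00000021203). Its log2 RPKM was 2.18 and 1.74 in the knockout libraries, against 3.36 and 3.21 in the wild type libraries. The groups were separated by more than the spread within either. The level was 2.51-fold lower in the knockout (log2 change -1.33, SE 0.16, adjusted p = 0.00211).

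Usp25 encodes an enzyme of immune signalling and of quality control at the endoplasmic reticulum. It lies at chr16:77014314-77117024 on the plus strand in mm9 (ENSMUSG00000022867). Its log2 RPKM was 2.27 and 2.08 in the knockout libraries and 3.46 and 3.34 in the wild type libraries. The libraries of each group lay close together, and Usp25 had the smallest adjusted p of the 59. The level was 2.33-fold lower in the knockout (log2 change -1.22, 95% interval -1.49 to -0.95, adjusted p = 0.000593).

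Usp44 encodes a nuclear enzyme that acts on histone H2B and in the mitotic spindle checkpoint. It lies at chr10:93294300-93311269 on the plus strand in mm9 (ENSMUSG00000020020). Its log2 RPKM was 2.39 and 2.24 in the knockout libraries and 3.17 and 3.14 in the wild type libraries. Again the groups did not overlap, as was so for 16.8% of all genes tested in the lower direction. The level was 1.79-fold lower in the knockout (log2 change -0.84, SE 0.11, adjusted p = 0.00247).

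Usp50, a relative of Usp8 whose human counterpart is thought to be inactive as an enzyme, lies at chr2:126534832-126609196 on the minus strand in mm9 (ENSMUSG00000027364). Its log2 RPKM was 2.93 and 2.79 in the knockout libraries and 3.58 and 3.38 in the wild type libraries. The change was -0.62 (95% interval -0.89 to -0.35, adjusted p = 0.0125), 1.54-fold lower in the knockout, and it missed the threshold when no filter on low values was applied (adjusted p = 0.0532). Usp50 overlaps Usp8 on the opposite strand and Gm10774 on its own strand, and both were more abundant. Gm10774 was higher in each knockout library than in either wild type library (change 0.47, adjusted p = 0.0723), as were 46.4% of all genes tested. The use of strand in counting is not given in the sources used here, so reads of Usp50 and Usp8 may not have been told apart.

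In all 5 genes that fell, replicate 2 was the lower of the knockout libraries and also the lower of the wild type libraries. The share of all genes tested with this order was not counted. Deviations of same-numbered libraries correlated at 0.331 over all genes tested. Spermatid markers moved with the groups. Over all genes tested, 7.15% fell and 1.22% rose. Of 9 genes listed as elongating spermatid markers, such as Prm1 and Tnp1, 8 fell and 0 rose. Their summed level was 118 and 69.0 RPKM in the knockout libraries, against 988 and 938 RPKM in the wild type libraries. Which cells held these RNAs at 24 days was not measured. Of 8 round spermatid markers, such as Acrv1, 6 fell and 0 rose, and their sum was 129 and 105 RPKM in the knockout, against 266 and 246 RPKM in wild type. Of 10 spermatocyte markers 1 rose and 0 fell, of 8 Sertoli cell markers 0 were called, and no marker of these lists was without reads in all 4 libraries. The Sertoli sum was 521.5 and 528.5 RPKM in the knockout and 446.7 and 416.3 RPKM in wild type. The part of cell composition in the lower deubiquitinase levels was not tested.

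**Figure D2:**
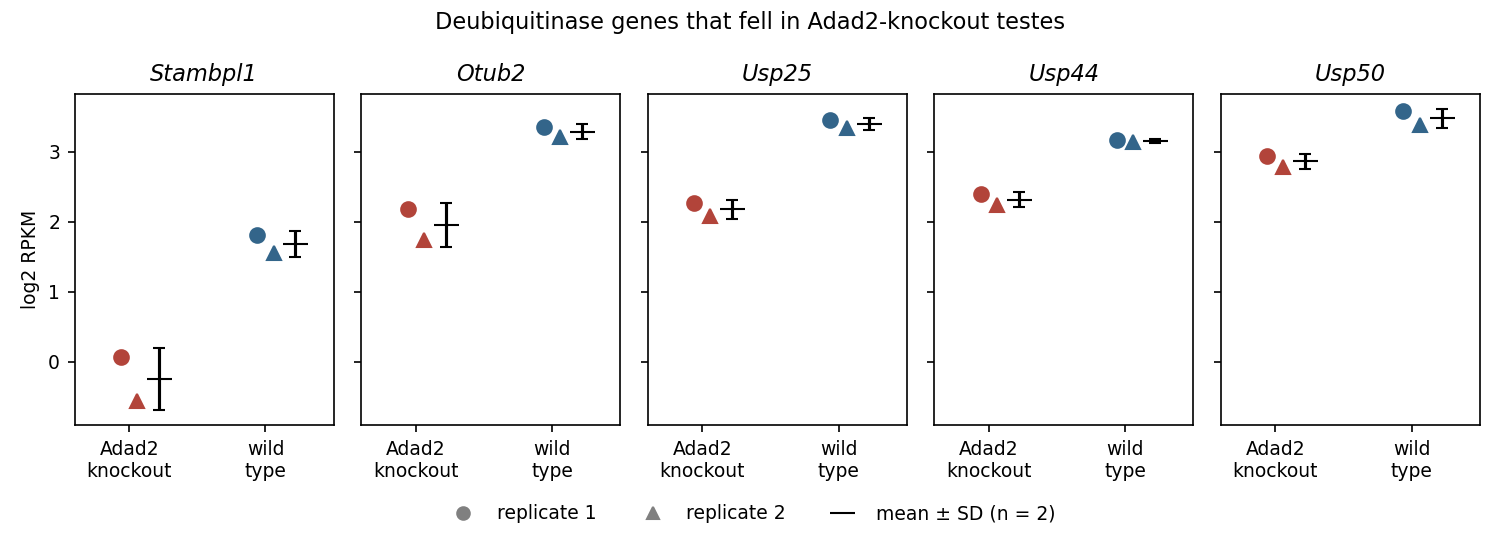
Log2 RPKM of the 5 genes that fell, with the Adad2-knockout libraries in red and the wild type libraries in blue, circles for replicate 1, triangles for replicate 2, and bars for the mean ± SD of 2 libraries. In each panel both knockout libraries lie below both wild type libraries, with the widest gap for Stambpl1.

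Each of the 5 has a relative in the genome, and none of those relatives fell, where 7.15% of all genes tested fell and 1.22% rose. With so few relatives, that count does not set them apart from other genes. Stambp was the 1 relative past the threshold, and it moved the other way. It was at 5.93 and 6.16 log2 RPKM in the knockout libraries and 4.61 and 4.57 in the wild type libraries (change 1.45, adjusted p = 0.000278, and 0.0535 without wild type replicate 1), while its neighbour Actg2, 6941 bases away, changed by -2.33. The log2 ratio of Stambpl1 to Stambp within a library was -5.86 and -6.72 in the knockout, against -2.80 and -3.02 in wild type. RPKM is per length, so such ratios compare levels directly: Stambpl1 was the less abundant of the pair in every library, and its ratio to Stambp was 10.4-fold lower in the knockout.

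Otub1, the abundant relative of Otub2 and an inhibitor of ubiquitin-conjugating enzymes, was at 3.84 and 3.65 log2 RPKM in the knockout and 3.47 and 3.53 in wild type (change 0.25, 95% interval -0.01 to 0.50, adjusted p = 0.192). The log2 ratio of Otub2 to Otub1 was -1.66 and -1.92 in the knockout and -0.11 and -0.33 in wild type. By RPKM the pair were thus nearer in wild type than in the knockout.

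Usp28, which stabilises Myc in human cells, was at 3.23 and 3.19 log2 RPKM in the knockout and 3.02 and 2.91 in wild type (change 0.24, adjusted p = 0.181). The log2 ratio of Usp25 to Usp28 was -0.96 and -1.11 in the knockout and 0.43 and 0.43 in wild type. By RPKM, Usp25 was the higher of the pair in both wild type libraries and the lower in both knockout libraries, an order that depends on the lengths used.

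Usp49, also a histone H2B enzyme, was at 2.32 and 2.20 log2 RPKM in the knockout and 1.98 and 2.16 in wild type (change 0.19, adjusted p = 0.340). The log2 ratio of Usp44 to Usp49 was 0.07 and 0.04 in the knockout and 1.19 and 0.98 in wild type. The log2 ratio of Usp50 to Usp8 was -3.38 and -3.35 in the knockout and -2.62 and -2.84 in wild type. For all 5 pairs the knockout ratios lay below the wild type ratios, a direction that follows in part from choosing pairs with a gene that fell, and with 2 libraries against 2 an exact permutation test of a ratio cannot give a two-sided p below 0.333.

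**Figure D3:**
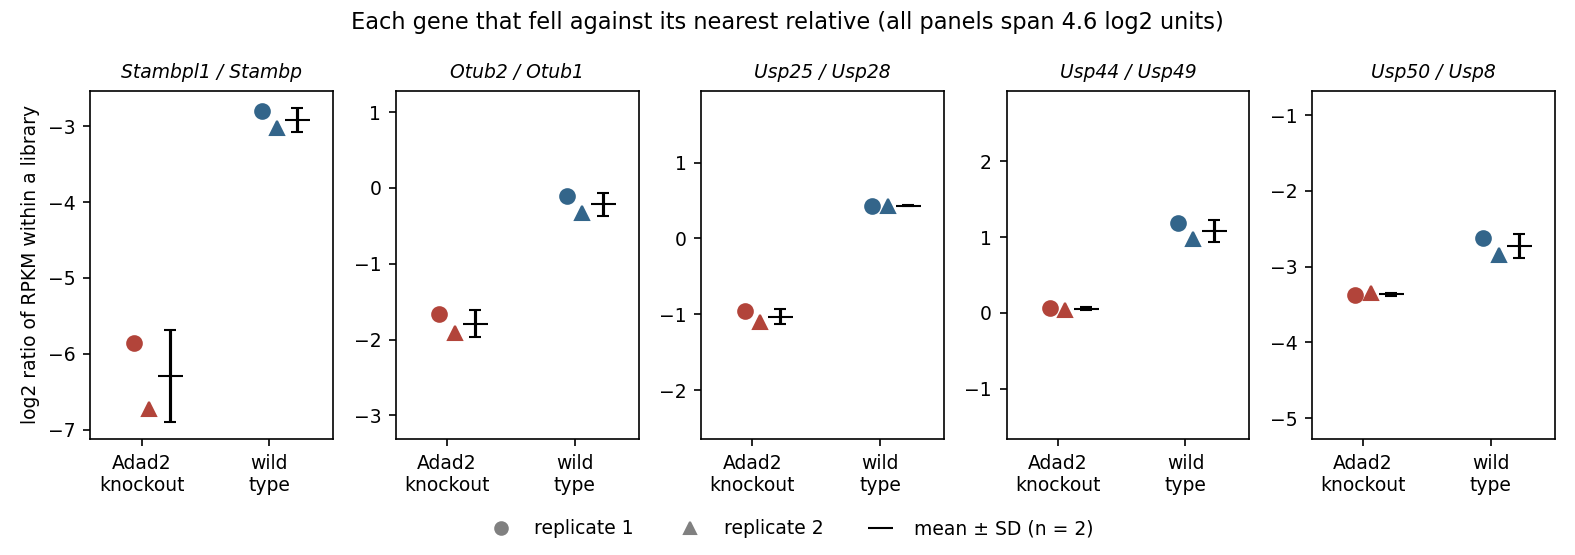
Log2 ratio of RPKM between each gene that fell and its relative within the same library, with the Adad2-knockout libraries in red left of the wild type libraries in blue, circles for replicate 1, triangles for replicate 2, and bars for the mean ± SD of 2 libraries. The ratio to the relative is lower in both knockout libraries in each panel, from 1.55-fold for Usp50 to Usp8 to 10.4-fold for Stambpl1 to Stambp.

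The differences of the 54 other genes tested ran from -0.36 for Usp15 to 0.48 for Usp11, the 95% interval of each lay within -1 and 1, and these intervals reached a median of 0.26 to either side. A change of 1 log2 unit in either direction thus lay outside the interval of every one of them. Intervals lay below 0 for 3 of the 54 and above 0 for 8. An interval off 0 is an unadjusted limma p under 0.05. Of all genes tested, called genes included, 11.3% were lower and 15.6% higher at that level. Over all 59, the knockout and wild type libraries did not overlap for 15 genes that were lower (25.4%, against 16.8% of all genes tested) and for 27 that were higher (45.8%, against 46.4%).

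**Figure D4:**
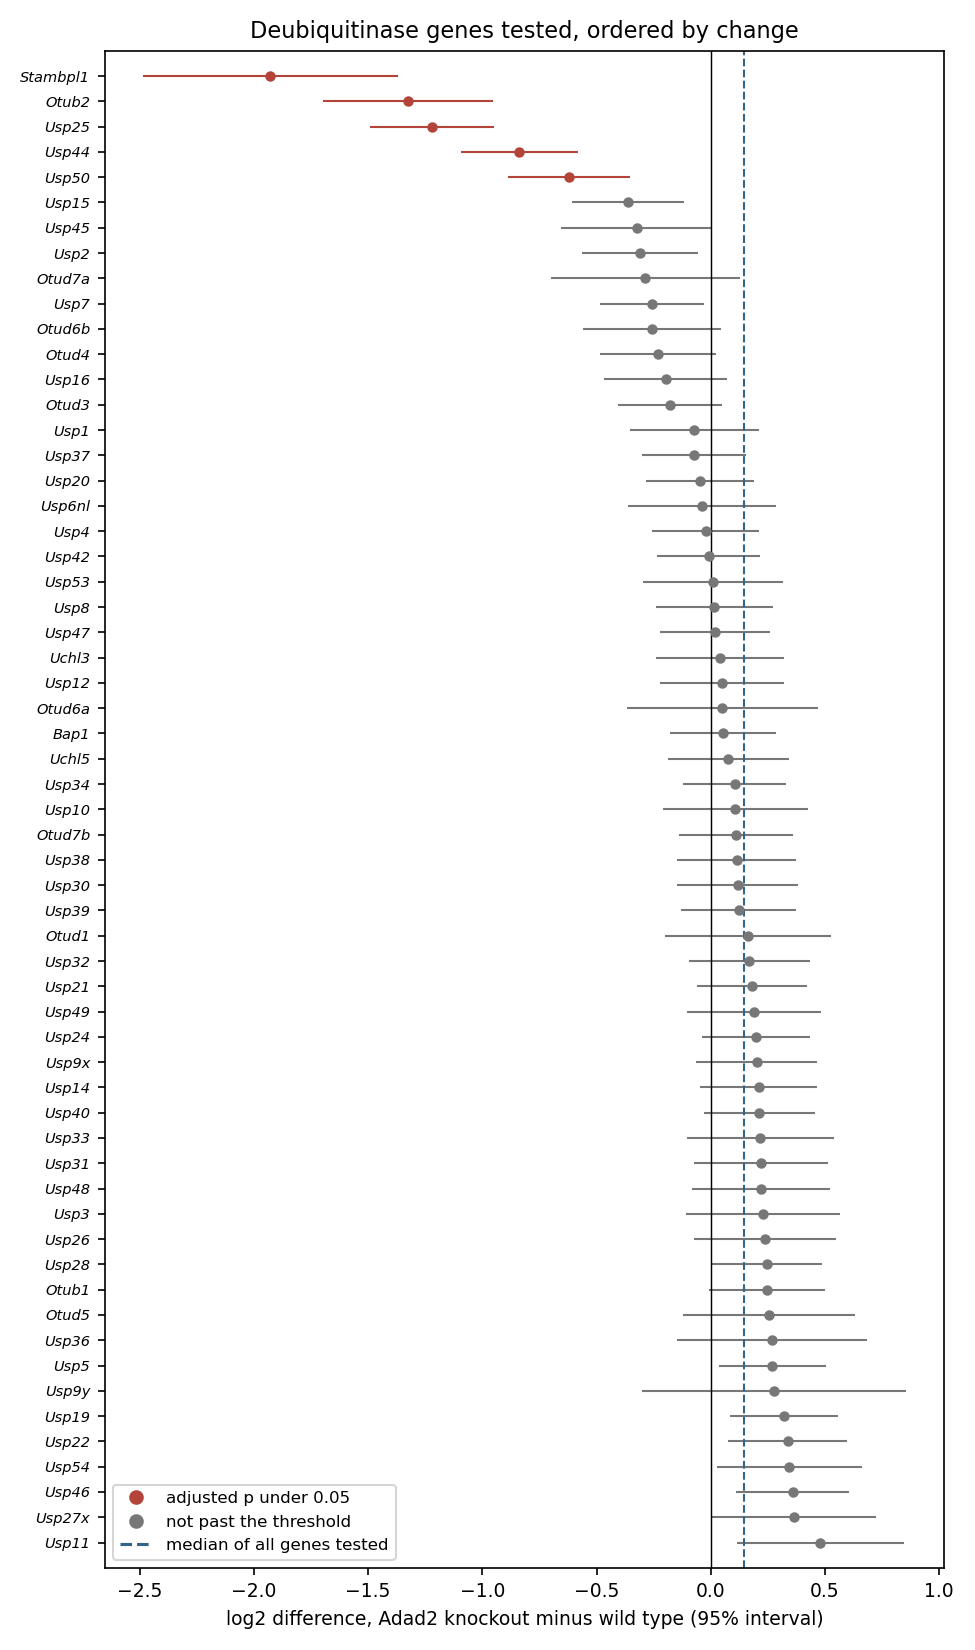
Log2 difference, knockout minus wild type, with its 95% interval for each of the 59 deubiquitinase genes tested, ordered by change. Red marks the 5 genes with an adjusted p under 0.05, grey the 54 others, which lie between -0.36 and 0.48, and the dashed line the median of all genes tested, 0.14.

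The most abundant genes were close in both groups. Usp8, which removes ubiquitin from receptors at endosomes, was at 6.31 and 6.14 log2 RPKM in the knockout and 6.19 and 6.23 in wild type. Usp1, which acts on the DNA repair proteins FANCD2 and PCNA, was at 6.15 and 6.15 in the knockout and 6.09 and 6.36 in wild type. Usp47, tied to base excision repair, was at 5.92 and 5.85 in the knockout and 5.83 and 5.91 in wild type. None of these differed by more than the spread between libraries.

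Usp19, anchored in the endoplasmic reticulum membrane, was at 5.52 and 5.59 log2 RPKM in the knockout and 5.26 and 5.21 in wild type (change 0.32, 95% interval 0.08 to 0.56, adjusted p = 0.106). Usp2, whose loss lowers male fertility in mice, was at 5.21 and 5.16 in the knockout and 5.40 and 5.58 in wild type (change -0.31, adjusted p = 0.130). Both had groups that did not overlap (as for 46.4% of all genes tested, higher, and 16.8%, lower) but missed the threshold. These 5 genes made up 36.1% and 35.6% of the summed RPKM of the 66 in the knockout libraries and 34.7% and 36.5% in the wild type libraries. That sum was 813 and 796 RPKM in the knockout and 803 and 828 RPKM in wild type, so the total deubiquitinase level overlapped between the groups.

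Usp44 was the 1 gene that fell among the 11 histone and chromatin genes tested, whose median change was 0.18. For this group and those that follow, the share of all genes tested that fell was 7.15%. Usp22, the ubiquitin protease of the SAGA coactivator, was at 3.45 and 3.65 log2 RPKM in the knockout and 3.27 and 3.17 in wild type (change 0.34, 95% interval 0.08 to 0.60, adjusted p = 0.117). With a library left out, Usp22 changed least without knockout replicate 2, by 0.24, and most without knockout replicate 1, by 0.44. Its X-linked relative Usp27x, which uses the same adaptor proteins, was at 1.34 and 1.59 in the knockout and 1.07 and 1.13 in wild type (change 0.36, adjusted p = 0.185). Both genes were higher in each knockout library than in either wild type library, as were 46.4% of all genes tested.

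For Usp16 and Bap1, which act on histone H2A, the intervals spanned 0. The change of Usp16 was -0.20 (95% interval -0.47 to 0.07). That of Bap1, the enzyme of the PR-DUB complex, was 0.05 (-0.18 to 0.29). Usp7, which stabilises Mdm2 and other nuclear proteins, was at 4.22 and 4.24 log2 RPKM in the knockout and 4.47 and 4.50 in wild type (change -0.26, 95% interval -0.49 to -0.03, adjusted p = 0.148). Usp42, abundant in testis, was at 4.23 and 4.25 in the knockout and 4.24 and 4.25 in wild type, a change of -0.01.

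Of the 6 genes grouped under DNA damage and repair, 0 were called and the median change was 0.23. The unadjusted limma p was under 0.05 in 2, Usp11 and Usp28, both higher, against 15.6% of all genes tested that were higher. Usp11, an X-linked enzyme that acts on the BRCA2 and PALB2 repair proteins, had the largest positive change of the 59. It was at 1.53 and 1.34 log2 RPKM in the knockout and 1.01 and 0.90 in wild type (change 0.48, 95% interval 0.12 to 0.84, adjusted p = 0.112). Among its relatives, Usp15, an enzyme of TGF-beta signalling, was at 5.12 and 4.98 in the knockout and 5.43 and 5.39 in wild type (change -0.36, 95% interval -0.61 to -0.12, adjusted p = 0.0828). After quantile normalization, which called 8.15% of all genes lower and 1.83% higher, its adjusted p was 0.0368. The difference for Usp4 was -0.02.

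The 3 genes tested whose products recycle ubiquitin at or near the proteasome had changes of 0.08 for Uchl5, 0.21 for Usp14 and 0.27 for Usp5, none called. Uchl5 and Usp14 bind the proteasome, and Usp5 takes apart free ubiquitin chains. Usp5 was at 4.11 and 4.21 log2 RPKM in the knockout and 3.88 and 3.90 in wild type (95% interval 0.04 to 0.50, adjusted p = 0.144). Both of its knockout values were above both wild type values, a pattern of 46.4% of all genes tested.

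Of 11 endosome and membrane traffic genes tested, Stambpl1 was the 1 called, and the median over them was 0.02. Usp46 and Usp12 are close relatives activated by the same partner, Wdr48. Usp46 was at 3.01 and 2.92 log2 RPKM in the knockout and 2.58 and 2.63 in wild type (change 0.36, 95% interval 0.11 to 0.61, adjusted p = 0.0875), while the difference for Usp12 was 0.05 (-0.22 to 0.32). The difference between these relatives was not tested.

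The 10 genes tested of the signalling and innate immunity group held Otub2 and Usp25, which fell, against 7.15% of all genes tested. The median of the group was -0.10. The Otu genes as a whole, 10 in number and all tested, held 1 that fell, and their median was -0.06. Otud4, Otud3, Otud6b and Otud7a had changes of -0.23, -0.18, -0.26 and -0.29, none called, and Otud5, Otud1 and Otud7b had changes of 0.26, 0.16 and 0.11, none called. Usp45, a regulator of the ERCC1 repair nuclease and in no group, was at 1.39 and 1.23 log2 RPKM in the knockout and 1.67 and 1.60 in wild type (change -0.32, adjusted p = 0.191). Usp54 was at 2.46 and 2.39 in the knockout and 2.23 and 1.93 in wild type (change 0.34, adjusted p = 0.160).

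Of 5 genes tested in a group of testis-enriched and some sex-linked genes, Usp50 fell and 4 were not called, among them Usp2. The group does not hold every sex-linked gene, and Usp9x is outside it. Usp26, an X-linked gene of the testis, was at 2.48 and 2.48 log2 RPKM in the knockout and 2.40 and 2.10 in wild type (change 0.24, adjusted p = 0.273). Usp9y, on the Y chromosome, had a difference of 0.28 (95% interval -0.30 to 0.85) and its X-linked relative Usp9x one of 0.20 (-0.06 to 0.47), and the near relatives may share reads. The change was above 0 in all 6 X-linked genes tested, and their median was 0.25. Of the 527 X-linked genes tested in the whole table, 370 had a change above 0 and the median was 0.20. The 52 autosomal deubiquitinase genes tested had a median of 0.07, against 0.14 over all autosomal genes tested.

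The 7 genes with a mean under 0 were Usp13, Usp17l5, Usp18, Usp29, Usp35, Usp43 and Usp51. They were not tested, and with no filter, where 4.14% of all genes fell and 0.372% rose, the smallest adjusted p among them was 0.34, for Usp51. Usp17l5, of a multicopy family, had the value that the table gives to genes without reads in all 4 libraries. Usp51, another SAGA-type enzyme on the X chromosome, had 29 and 49 reads in the knockout and 19 and 26 reads in wild type, as estimated from its RPKM and exon length. Its log2 RPKM was -1.32 and -0.41 in the knockout and -1.81 and -1.65 in wild type, a change of 0.86. Usp18, which removes the interferon-induced modifier ISG15, was at -1.62 and -1.18 in the knockout and -2.16 and -1.22 in wild type, with overlapping groups. Usp29, an imprinted gene, ranged from -0.80 to -0.16 in the knockout and from -1.21 to -0.18 in wild type.

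The rest of the ubiquitin pathway was described with lists chosen by function. Over the 5 lists together, 7 of 159 genes tested fell and 2 rose, against 7.15% and 1.22% of all genes tested. Of 27 other deubiquitinases and SUMO proteases tested, Stambp was the 1 that rose and 0 fell. Of 27 deubiquitinase cofactors, such as Wdr48 and Atxn7l3, 0 were called, and their changes lay between -0.12 and 0.39. Of 40 genes for ubiquitin and its activating and conjugating enzymes, 1 fell. It was Ube2j1, a conjugating enzyme of the endoplasmic reticulum, at 4.39 and 4.29 log2 RPKM in the knockout and 4.79 and 4.85 in wild type (change -0.48, adjusted p = 0.0240).

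Of 34 ubiquitin ligases of germ cells tested, 5 fell and 0 rose, against 7.15% and 1.22% of all genes tested. The 4 with the smallest p are named here. Rnf133, a ligase of the spermatid endoplasmic reticulum, was at 0.13 and -0.55 log2 RPKM in the knockout and 3.81 and 3.75 in wild type (15.9-fold lower, adjusted p = 0.000218). Rnf151, a RING protein of the acrosome, was 4.57-fold lower, and Fbxo24, an F-box protein, was 4.73-fold lower. Klhl10, a Cul3 adaptor of spermatids, was 1.87-fold lower.

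Among 31 proteasome genes tested 1 fell and 1 rose, against 7.15% and 1.22% of all genes tested. The median change was 0.15. Psma8, the alpha subunit of the testis proteasome used in meiosis, was at 6.77 and 6.87 log2 RPKM in the knockout and 6.04 and 6.22 in wild type (1.61-fold higher, adjusted p = 0.00756). Psma6 was 1.44-fold lower (adjusted p = 0.0142). Adad2 itself was at 3.73 and 3.30 in the knockout and 4.66 and 4.47 in wild type (change -1.05, adjusted p = 0.00604). The targeted gene was thus lower in the libraries labelled knockout, though its RNA remained in both. As 7.15% of all genes tested also fell, this is a limited check of the labels.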

How the data were processed

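Whole-testis RNA was made into TruSeq libraries, per the labels' protocols. Bowtie2, bcl2fastq 2.17.1.14 and the mm9 build appear in the submitters' processing notes. How reads were counted, with which annotation and whether by strand, is not given in the sources used here. The authors deposited log2 RPKM values for 26127 entries. Entries with no gene name, 59 in all (0.23%), stayed out. Columns were matched to libraries by group and replicate number. Genes without reads carry 0.9 of a read, which put depth at about 33000000 and 29400000 reads for the knockout libraries and 30200000 and 36900000 for wild type. Reads per gene are estimates from Gencode M21 exon lengths, whole within 0.01 in all 4 libraries for 23 of the 66 genes.

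Genes with a mean of at least 0 entered a limma fit (version 3.58.1, R 4.3.3, statmod 1.5.0) with intensity trend and robust estimation, unpaired and two-sided. The threshold was 0.05 after Benjamini-Hochberg adjustment across the 13414 genes. The code was tested on simulated data. The alternatives tried were a replicate block, each library left out, plain limma (neither trend nor robust), library medians set equal, quantile normalization, the scale log2(RPKM + 1), and a filter removed or raised to a mean of 2. With a library left out, the lone library of its group is assumed to vary like the other group.

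Members, groups and lists were chosen with earlier results of these data known, so no list was tested as a set. Given with their values are the genes past the threshold, the 5 most abundant, the 8 largest changes among those not past it, and relatives of those that fell. Other genes are named with their group, after their values were seen. Of the pathway lists, up to 4 called genes each by smallest p are named. Promoter sequences are RefSeq's, 250 bases before to 50 after a start site, in GRCm38.p6. Coordinates of genes are those of the deposited table in mm9, and the builds were not converted.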

Additional observations from a re-analysis of the deposited data

How the results depend on the processing

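The direction of Stambpl1, Otub2, Usp25, Usp44 and Usp50 was the same in all 54 results under an alternative, and 10 missed the threshold. Fits without a knockout library took their spread from the wild type libraries alone, so they are no check of passing the threshold. The 10 that missed it were Usp50 without a filter (adjusted p = 0.0532), all 5 genes without wild type replicate 1 (0.0709 to 0.181), and Stambpl1, Otub2, Usp44 and Usp50 without wild type replicate 2 (0.0671 to 0.0831). Deubiquitinase genes called lower ranged from 0 to 5 and called higher from 0 to 1 when a library was left out. Over all genes the ranges were 0 to 1308 lower and 0 to 494 higher, and over the other pathway lists 0 to 10 lower and 0 to 6 higher. Adad2 ranged from -1.26 to -0.84 on the log2 scale, with adjusted p = 0.143 when wild type replicate 1 was left out and 0.0838 when replicate 2 was. No gene was called without wild type replicate 1; the cause was not tested.

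The stricter filter called 637 genes lower, no filter 97 higher and quantile normalization 245 higher, against 959 lower and 163 higher. After quantile normalization Usp15 and Usp2 were also past the threshold (adjusted p = 0.0368 and 0.0423). The replicate block called 1477 genes lower (11%) and 1837 higher (13.7%), 6 deubiquitinase genes lower (the 5 and Usp15, adjusted p = 0.0241) and 4 higher (Usp22, Usp54, Usp46 and Usp11), and 11 lower and 23 higher in the other lists. The labels do not say that the numbers pair libraries; deviations of same-numbered libraries correlated at 0.331 over the genes tested, and with 2 pairs this does not establish a pairing. Changes near 0 turned sign when a library was left out: Usp8 ranged from -0.0697 to 0.0997, Usp1 from -0.209 to 0.0639 and Usp47 from -0.0235 to 0.0594. Usp47 was also at -0.0034 after quantile normalization. Depth limits genes under 0, such as Usp13 with 11 to 19 reads in a library.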
